A study of Mus musculus with 16 samples.

Results

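The host-by-etoposide interaction asks of each gene whether its response to etoposide (ETS), a topoisomerase II inhibitor that leaves double-strand breaks in DNA, differed between tumors grown in lean and in obese mice. B16F10 melanoma cells, a line derived from a C57BL/6 mouse, had been grafted under the skin of C57BL/6J mice (lean) and of ob/ob mice (obese), which lack functional leptin and overeat, at 6 weeks of age. Bulk RNA was sequenced from 16 tumors, 4 in each of 4 groups: lean and obese tumors before therapy, and lean and obese tumors after 5 intraperitoneal injections of ETS at 20 mg per kg. All groups carry the same tumor line, and both hosts keep their own immune, stromal and vascular cells, so that each value is a sum over tumor and host cells. The sources used here do not say whether mice of the pre-therapy groups received a vehicle or when their tumors were taken. Growth time and tumor size may therefore differ along with ETS and cannot be told apart from it, also where a change is named an ETS effect below. Labels do not say that each library came from a separate mouse, so p-values measure the spread between these samples.

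The members are all 16209 of the 45777 listed genes that had no count of 0 in any of the 16 libraries. For each of them, the log2 fold change after ETS in obese tumors was subtracted from the log2 fold change after ETS in lean tumors. A positive difference of effects is named here the lean direction, in which ETS moved the gene further up (or less far down) in lean tumors, and a negative one the obese direction. Genes were called by edgeR's quasi-likelihood test where the p adjusted over all tested genes by Benjamini-Hochberg was under 0.05. Genes outside the naming rule given with the methods were chosen after their values were seen. Levels are given as CPM, counts per 1000000 of the TMM-scaled library, in the order of replicate numbers. Errors of differences are approximate standard errors (SE), worked back as the size of the difference over the square root of the test's F statistic.

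Double-strand breaks activate p53, which induces arrest genes such as Cdkn1a and death genes such as Bax, and they halt replication and division. Interferons, made by T and NK cells or by cells that sense nucleic acids, act through Jak kinases and factors such as Stat2 and Irf9 to switch on antiviral effectors, antigen presentation and chemokines. Fatty acids enter mitochondria through the carnitine shuttle, of which Cpt1a is the gatekeeper, are burned by beta-oxidation, and feed electrons to the respiratory chain. Ppara is the lipid-sensing receptor that induces these enzymes, and leptin deficiency is known for high lipid supply and altered immunity.

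Totals per library ranged from 47199949 to 61655287 counts. Log2 levels of tumors within a group correlated across genes at 0.970 to 0.992, and every pair differed by more than sampling noise. The share of counts from mitochondrially encoded genes was 4.02 to 6.04% in tumors before therapy, 9.75 to 14.4% in lean tumors after ETS, and 11.5, 11.6, 6.64 and 4.63% in obese tumors 1 to 4 after ETS, so that obese tumors 3 and 4 after ETS stood apart from the others. Melanocyte genes were detected in all tumors. The sums of the 23 pigmentation and lineage markers, all of them tested, did not overlap between hosts before therapy. They were 28630 to 36440 CPM in lean and 18010 to 24170 CPM in obese tumors. After ETS they were 36700 to 43610 CPM in lean tumors. In obese tumors 1 to 4 after ETS they were 42340, 40120, 25460 and 18610 CPM.

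Of the tested genes, 2660 were called (16.4%), 1030 in the lean direction (6.35%) and 1630 in the obese direction (10.1%). The directions differed in size. Genes of the lean direction had a median difference of 0.65 and a median level of 38.1 CPM, and 229 of them reached a 2-fold difference (1.41% of all tested), whereas genes of the obese direction had a median of -2.34 at 8.73 CPM and 1293 reached it (7.98%). Across all tested genes the median difference was 0.05. With a tumor left out in turn, 1769 genes were called in each of the 16 fits, 498 in the lean and 1271 in the obese direction.

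The lean direction depended on how libraries were scaled. On TPM values the median difference of all genes was -0.16 instead of 0.05, and 228 genes were called in the lean and 2239 in the obese direction. With scaling by total counts alone the counts were 557 and 1852, so that 76.9% of calls had the obese direction, against 61.3% with TMM. No gene called with TMM was called in the opposite direction in these fits. Genes that lost their call were not checked for sign. The lean count was 594 without lean tumor 4 before therapy, 672 without lean tumor 2 after ETS and 676 without obese tumor 4 before therapy.

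The called genes sorted by what ETS did in each host, which by itself passed the test in 7099 genes for lean tumors (43.8%) and 6517 genes for obese tumors (40.2%). A lean fall met an obese rise in 650 genes, with a median difference of -3.83. A further 398 genes of the obese direction fell in lean tumors and did not pass in obese ones, and 519 rose in obese tumors and did not pass in lean ones. On the other side, 532 genes rose in lean tumors and did not pass in obese ones, 289 fell in obese tumors and did not pass in lean ones, and 44 rose in lean and fell in obese tumors. Both hosts' own effects passed with the same sign in 164 called genes, of which 124 rose in both hosts (105 with the larger rise in lean tumors) and 40 fell in both. In 64 called genes neither host's own effect passed.

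**Figure D1:**
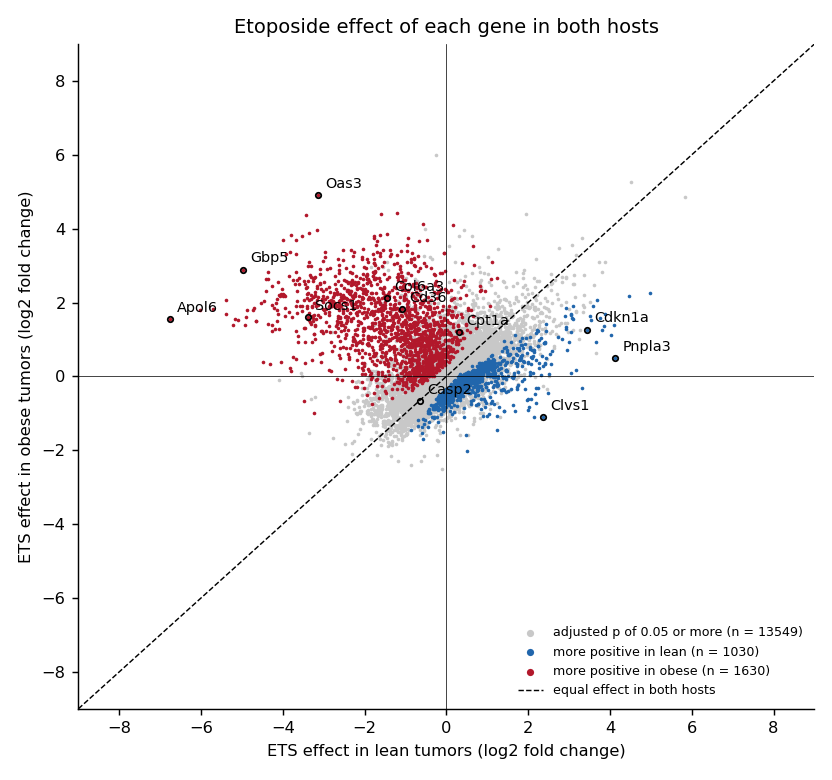
Each point is 1 of the 16209 tested genes, with the log2 fold change after ETS in lean tumors on the x axis and in obese tumors on the y axis, and genes on the dashed line changed equally in both hosts. The 1630 genes called in the obese direction spread far above the line into the upper left, and the 1030 called in the lean direction lie close below it, with a few such as Clvs1 and Pnpla3 far to the right.

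The hosts differed more before therapy than after ETS among these genes. These comparisons share tumors with the interaction. The difference of effects equals the obese-minus-lean difference before therapy minus that after ETS. Choosing genes by it therefore partly fixes the shares below in advance, and the backgrounds of all genes are no test of them. The values are given side by side only. Genes of the obese direction had a median obese-minus-lean difference of -1.40 before therapy and of 0.69 after ETS, with 1243 of the 1630 lower in obese tumors before therapy (background 12.9%) and 289 higher after ETS (background 3.28%). Genes of the lean direction went from a median of 0.48 before therapy to -0.16 after ETS, with 770 of the 1030 higher in obese tumors before therapy (background 13.5%) and 102 lower after ETS (background 2.3%). Over all tested genes, 4280 differed between hosts before therapy (26.4%) and 904 after ETS (5.58%). The last count was 481, 433, 235 and 186 without lean tumors 1 to 4 after ETS and 243 without obese tumor 4 after ETS.

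**Figure D2:**
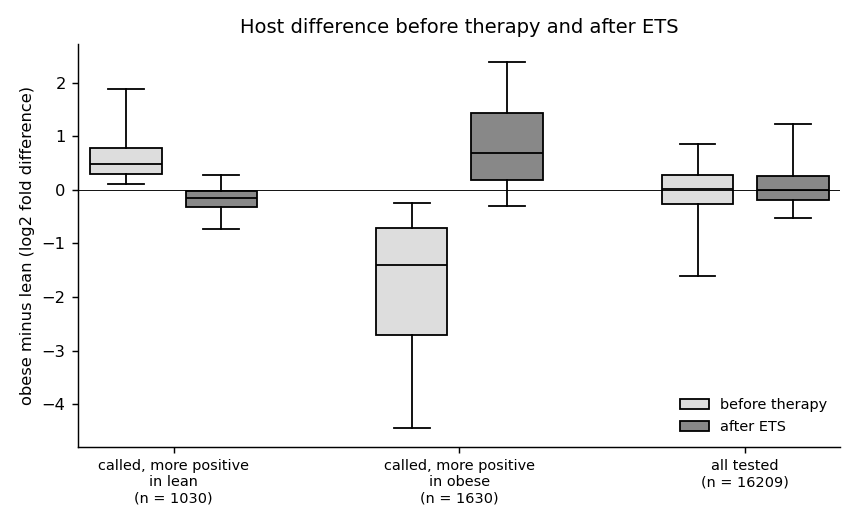
Boxes give the median and quartiles, and whiskers the 5th to 95th percentile, of the obese-minus-lean log2 difference over genes, before therapy (light) and after ETS (dark). Genes called in the obese direction start at a median of -1.40 and end at 0.69, those called in the lean direction start at 0.48 and end at -0.16, and all tested genes stay near 0.

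Gene lists were read by how many tested members were called in each direction, beside 6.35% in the lean and 10.1% in the obese direction over all genes. Counts of members that rose or fell within a host stand beside 21.0% and 22.8% of all genes in lean tumors. In obese tumors 21.2% of all genes rose and 19.0% fell. Interferon-inducible genes, antigen presentation, chemokines, complement and matrix genes had most members called in the obese direction. Respiratory chain subunits, ribosomal proteins and p53 targets had many members called in the lean direction, and replication, mitosis, repair and cholesterol genes had few in either.

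**Figure D3:**
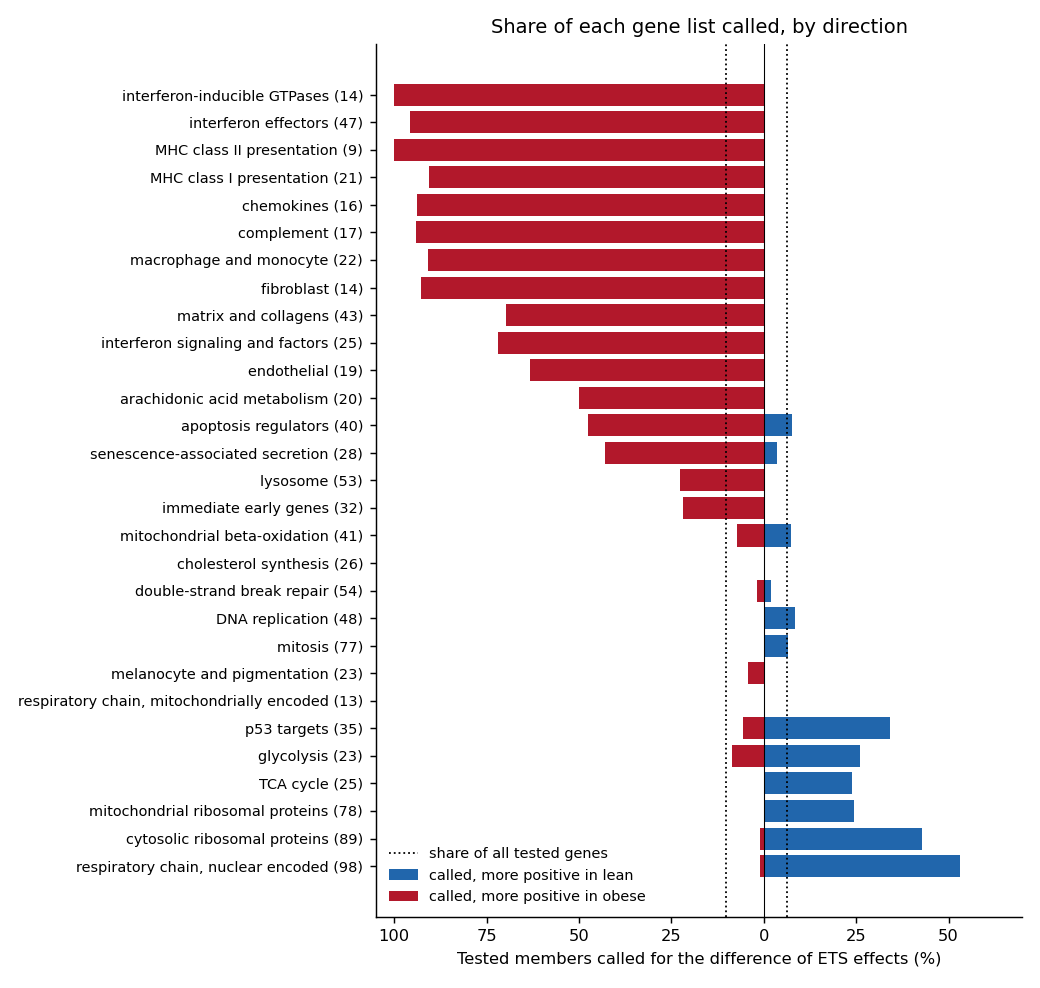
Bars give the percentage of tested members (their number in brackets) of each gene list called for the difference of effects, to the left for the obese direction (red) and to the right for the lean direction (blue), and dotted lines mark the shares over all tested genes, 10.1 and 6.35%. All 14 interferon-inducible GTPases lie on the left, and 52 of 98 nuclear-encoded respiratory chain genes on the right.

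After ETS, interferon-induced genes were lower in lean hosts and higher in obese hosts than before therapy: of 47 tested interferon effectors, 33 fell with lean hosts and 42 rose with obese hosts. For the difference 45 were called, all in the obese direction, and Isg20 and Ifi27 were not. The median lean effect was -1.39, the median obese effect 2.32, and the median difference -3.28. Rtp4 was at 28.9, 43.4, 26.2 and 28.8 CPM in lean tumors before therapy, at 11.9, 10.7, 9.97 and 11.2 CPM after ETS, at 1.88, 1.52, 1.17 and 0.777 CPM in obese tumors before therapy and at 17.3, 16.1, 7.39 and 16.3 CPM after ETS. Values before and after ETS did not overlap in either host, and the difference for Rtp4, a chaperone of receptors, was -4.96 (SE 0.40, adjusted p = 6.84e-06). Oasl2, an antiviral sensor protein related to the oligoadenylate synthetases, showed the same order, with a fall of 2.98 in lean and a rise of 3.36 in obese tumors and a difference of -6.34 (SE 0.55, adjusted p = 1.03e-05). Oas3, which makes the messenger that activates RNase L, rose by 4.91 in obese tumors and fell by 3.15 in lean ones. Bst2, which tethers budding virus to cells, differed by -2.80 (SE 0.26, adjusted p = 1.07e-05).

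The interferon-inducible GTPases, proteins that attack vacuoles of intracellular microbes, had the largest median of the lists with at least 5 tested members, -6.37 over 14 tested genes, all called in the obese direction, while 7 more had a count of 0 in some library and were not tested. Gbp3 was at 80.5, 181, 105 and 121 CPM in lean tumors before therapy, at 14.2, 8.85, 7.27 and 8.72 CPM after ETS, at 3.70, 4.33, 1.16 and 0.812 CPM in obese tumors before therapy and at 13.1, 14.04, 10.5 and 11.3 CPM after ETS. The lean tumors after ETS (7.27 to 14.2 CPM) overlapped the obese tumors after ETS (10.5 to 14.0 CPM), while before therapy the hosts lay far apart. Gbp3 differed by -5.95 (SE 0.60, adjusted p = 2.04e-05), Gbp5 by -7.86 (SE 0.92, adjusted p = 5.77e-05) and Gvin1, a very large member of the family, by -6.23 (SE 0.61, adjusted p = 2.04e-05). Gm12250, a gene model of the same family, fell by 6.02 in lean tumors, while its change of 1.78 in obese tumors missed the threshold. Counts of such near-identical copies (Gbp, Gvin, Slfn and Apol genes) can be split between them and are uncertain.

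The genes that carry the interferon signal had a smaller median difference than the effectors. Of 25 tested interferon receptors, kinases and factors, 18 were called, all in the obese direction, with a median of -1.06. Socs1 was at 10.3, 18.03, 11.4 and 17.3 CPM in lean tumors before therapy, at 1.25, 1.32, 1.38 and 1.52 CPM after ETS, at 0.641, 0.678, 0.419 and 0.159 CPM in obese tumors before therapy and at 1.36, 1.28, 1.36 and 1.72 CPM after ETS. Before therapy the lowest lean tumor lay at 10.3 and the highest obese tumor at 0.678 CPM, whereas after ETS the tumors of both hosts overlapped. Socs1 (gene ID 12703, chromosome 16 from 10783808 to 10785536 of GRCm38.p6), the feedback inhibitor of Jak kinases, fell by 3.38 with a lean host and rose by 1.60 with an obese host, a difference of -4.98 (SE 0.46, adjusted p = 1.07e-05). Irf1, a factor induced by interferon gamma, fell by 3.46 in lean tumors and changed by 0.36 in obese tumors, while Irf7, a factor of the type I response, rose by 3.79 in obese tumors. The receptor subunit Ifngr1 differed by -0.80 (adjusted p = 0.00839), and for Ifnar1 the difference of -0.29 (adjusted p = 0.127) missed the threshold.

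The promoters of these genes were searched for the interferon-stimulated response element, GAAA and GAAA with any 2 bases between them, because the GTPases and effectors moved together. The search covered both strands of the 250 bases before the start of each gene in RefSeq (GRCm38.p6), where 11488 of the 16209 tested genes had an entry. The 30 bases around the match follow, 5′ to 3′ on the strand of the gene, with the matching bases in capitals, for Gbp3 (chr3:142559995-142560024, plus strand), Gbp5 (chr3:142496759-142496788, plus strand), Socs1 (chr16:10785594-10785623, minus strand), Bst2 (chr8:71537577-71537606, minus strand) and Oas3 (chr5:120777715-120777744, minus strand), chosen as named genes with a match.
Gbp3: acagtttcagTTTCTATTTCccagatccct
Gbp5: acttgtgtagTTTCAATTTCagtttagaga
Socs1: gccggaaagaGAAACCGAAAgcgggggtgg
Bst2: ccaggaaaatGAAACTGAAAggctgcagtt
Oas3: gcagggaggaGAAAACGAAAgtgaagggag

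In Gbp3 and Gbp5 the element lies on the other strand and so reads as its reverse complement. The element was found in 3.18% of all promoters searched, in 7.5% of those of genes called in the obese direction (94 of 1253) and in 2.25% of those of the lean direction (18 of 801). It was present in 10 of 11 GTPase promoters, 13 of 35 promoters of interferon effectors and 1 of 27 of matrix genes (3.7%). It was also in 6 of 63 promoters of cytosolic ribosomal protein genes (9.52%), above the share of all promoters. The element was not found in this window of Oasl2, Tapbp and Psme1. The gamma-activated site TTCNNNGAA, a shorter palindrome of genes induced by interferon gamma, was in 7.31% of all promoters, in 9.66% of the obese direction, in 6.12% of the lean direction and in 7 of 11 GTPase promoters. Such matches describe sequence and do not show binding.

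Antigen presentation followed the same course. Of 21 tested genes of MHC class I presentation, 19 were called in the obese direction, and Calr and Pdia3, general chaperones of the endoplasmic reticulum, were not. Tapbp was at 229, 388, 277 and 366 CPM in lean tumors before therapy, at 63.5, 55.6, 50.6 and 55.2 CPM after ETS, at 30.8, 26.8, 12.7 and 15.03 CPM in obese tumors before therapy and at 72.5, 57.6, 58.9 and 72.2 CPM after ETS. Lean tumors fell below all of their pre-therapy values, and after ETS lean tumors (50.6 to 63.5 CPM) overlapped obese tumors (57.6 to 72.5 CPM). Tapbp, the tapasin that bridges empty class I molecules to the peptide pump (chromosome 17 from 33919478 to 33929290), differed by -4.10 (SE 0.35, adjusted p = 1.03e-05). Tap1, a subunit of that pump, differed by -5.56, and the immunoproteasome subunits Psmb8 and Psmb9 by -6.72 and -6.17, while the activator subunit Psme1 had the smaller difference of -1.88 (SE 0.18, adjusted p = 1.78e-05). Over the whole proteasome, 4 of 37 tested subunits were called in the obese direction, the interferon-inducible Psmb8, Psmb9 and Psmb10 together with Psmb2, and 1, Psmd5, in the lean direction.

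All 9 tested genes of MHC class II presentation were called in the obese direction, with a median effect of -4.13 in lean and 1.52 in obese tumors. H2-DMb1 was at 108, 171, 111 and 158 CPM in lean tumors before therapy, at 39.5, 29.6, 9.76 and 16.2 CPM after ETS, at 2.19, 3.17, 1.41 and 1.11 CPM in obese tumors before therapy and at 9.57, 4.78, 4.16 and 7.41 CPM after ETS. After ETS every lean tumor still lay above every obese tumor. H2-DMb1, which with H2-DMa loads peptides on class II molecules, differed by -4.25 (SE 0.59, adjusted p = 0.000199), and H2-DMa by -5.62 (SE 0.54, adjusted p = 1.83e-05). Cd74, the invariant chain, fell by 4.92 in lean tumors.

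Of 16 tested chemokines, which draw T cells and monocytes, 10 fell with lean hosts and 11 rose with obese hosts. The difference was called for 15 in the obese direction and not for Cxcl11, and 7 more contained a count of 0. Ccl7 was at 14.7, 17.5, 6.93 and 8.52 CPM in lean tumors before therapy, at 4.94, 4.095, 2.01 and 1.35 CPM after ETS, at 2.52, 2.13, 1.06 and 0.8301 CPM in obese tumors before therapy and at 13.96, 8.11, 4.32 and 14.3 CPM after ETS. Ccl7, which attracts monocytes, had overlapping values in lean tumors before therapy and obese tumors after ETS, and differed by -4.58 (SE 0.71, adjusted p = 0.000492). Ccl22, a ligand of Ccr4, differed by -3.83 (SE 0.49, adjusted p = 0.000123). Cxcl9 and Cxcl10 are both ligands of Cxcr3 on T cells, and Cxcl9 fell by 5.40 in lean tumors with a difference of -7.46, while Cxcl10 differed by -2.82. Il12rb1, a receptor chain for interleukins 12 and 23, had the lowest p of all tested genes, with a difference of -4.23 (SE 0.29, adjusted p = 2.90e-06).

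Complement genes had 16 of 17 tested members called in the obese direction and Cd59a, a membrane inhibitor, not called. C1ra, a protease that starts the classical pathway, fell by 1.60 in lean and rose by 1.42 in obese tumors, a difference of -3.02 (SE 0.40, adjusted p = 0.000155). C4a was at 11.1, 14.9, 13.7 and 16.6 CPM in lean tumors before therapy, at 15.2, 10.9, 11.6 and 13.9 CPM after ETS, at 1.74, 2.79, 1.31 and 1.64 CPM in obese tumors before therapy and at 13.2, 6.94, 9.79 and 8.53 CPM after ETS. C4a, which the RefSeq table lists as a transcribed pseudogene and which resembles the gene of component C4 closely enough for reads to be split between them, did not pass in lean tumors (-0.13) but rose by 2.37 in obese ones, a difference of -2.49 (SE 0.33, adjusted p = 0.000169). Among 13 tested immune checkpoint genes, 8 were called, all in the obese direction. Cd274, which encodes the inhibitory ligand PD-L1, fell by 2.82 in lean and rose by 0.94 in obese tumors, and Havcr2, which encodes the receptor TIM-3, differed by -3.78 (SE 0.54, adjusted p = 0.000259).

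Most tested markers of macrophages and dendritic cells moved with these genes. Of 22 tested macrophage and monocyte markers, 20 were called in the obese direction with a median of -4.50, and the sum of all 25 was 1496 to 2797 CPM in lean tumors before therapy, 1580 to 1940 CPM after ETS, 486 to 1013 CPM in obese tumors before therapy and 1441 to 2506 CPM after ETS. Fcgr1 was at 36.4, 42.3, 13.8 and 24.2 CPM in lean tumors before therapy, at 4.56, 4.28, 1.72 and 0.578 CPM after ETS, at 0.372, 3.31, 1.83 and 0.477 CPM in obese tumors before therapy and at 12.9, 6.96, 6.73 and 20.9 CPM after ETS. Fcgr1, a high-affinity antibody receptor of macrophages, differed by -6.38 (SE 1.002, adjusted p = 0.000571), and Mertk, a receptor for dying cells, by -2.25 (SE 0.29, adjusted p = 0.000123). Of 9 tested dendritic cell markers, 6 were called in the obese direction. Among these Ccr7, which guides dendritic cells to lymph nodes, differed by -4.59 (SE 0.56, adjusted p = 8.07e-05). B and plasma cell markers had 0 of 3 tested members called, although 3 had an unadjusted p under 0.05 by edgeR's test. Of 16 neutrophil markers, 14 had a count of 0 in some library, and the 2 tested were called in the obese direction.

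T and NK cell markers were almost all excluded from the test, since 28 of 29 had a count of 0 in some library. Their sum was 98.4 to 168 CPM in lean tumors before therapy, 2.72 to 8.999 CPM after ETS, 4.01 to 7.76 CPM in obese tumors before therapy and 3.83 to 16.04 CPM after ETS. Gzmb, a protease of cytotoxic granules, was at 12.3, 19.8, 22.2 and 25.7 CPM in lean tumors before therapy, at 0.178, 0.2597, 0.143 and 0.0875 CPM after ETS, at 0.145, 0, 0 and 0 CPM in obese tumors before therapy and at 0.979, 0.227, 0.478 and 1.28 CPM after ETS. Cd3e, a defining subunit of the T cell receptor complex, was listed at 0 in both lean tumors 2 and 3 after ETS, in all 4 obese tumors before therapy and in obese tumor 1 after ETS. Lck, a kinase of T cells, was the tested member: it fell in both hosts, by 2.61 in lean and 0.67 in obese tumors, and differed by -1.94 (SE 0.34, adjusted p = 0.00135). With edgeR's filterByExpr in place of the exclusion, all 29 markers were tested and 25 were called in the obese direction. That filter can keep a gene through a single group, and the summed markers were high in lean tumors before therapy alone. The direction of these calls was thus largely fixed in advance, and they add no support. In bulk tumors, fewer cells of a type and less RNA per cell cannot be told apart, and the part that cell numbers have in the interferon, presentation and chemokine results was not tested.

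**Figure D4:**
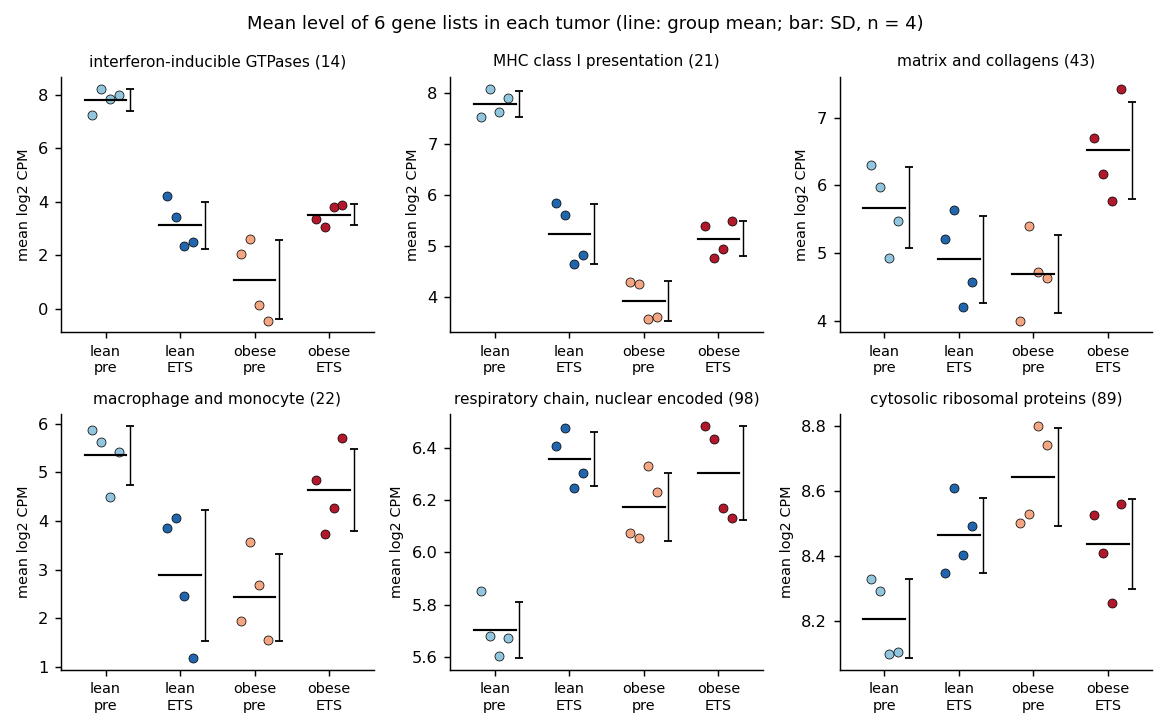
Each panel shows the mean log2 CPM of the tested members of a gene list (their number in brackets) in each of the 16 tumors, with a line at the group mean and a bar of 1 SD (n = 4 tumors). The GTPases, MHC class I and macrophage genes are high in lean tumors before therapy and low in obese ones, matrix genes are highest in obese tumors after ETS, and respiratory chain genes are lowest in lean tumors before therapy.

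Extracellular matrix genes rose in obese tumors. Of 43 tested, 30 were called in the obese direction and none in the lean direction, with a median effect of -0.75 in lean tumors and 2.07 in obese tumors. Col6a3 was at 69.9, 71.8, 80.7 and 88.2 CPM in lean tumors before therapy, at 26.3, 38.2, 27.5 and 21.8 CPM after ETS, at 21.5, 48.9, 30.2 and 44.1 CPM in obese tumors before therapy and at 199.6, 85.5, 90.02 and 249.6 CPM after ETS. All 4 lean tumors fell below the pre-therapy range, and all 4 obese tumors rose above theirs. Col6a3, a chain of the microfibrillar collagen VI (chromosome 1 from 90766860 to 90844001), differed by -3.56 (SE 0.47, adjusted p = 0.000137). Fbn1 was at 179.9, 79.7, 30.4 and 41.6 CPM in lean tumors before therapy, at 21.1, 25.01, 7.36 and 6.81 CPM after ETS, at 6.202, 23.8, 11.3 and 8.901 CPM in obese tumors before therapy and at 86.9, 61.9, 40.5 and 191 CPM after ETS. Fbn1, fibrillin 1 of elastic microfibrils, differed by -5.38 (SE 0.93, adjusted p = 0.00112), with obese tumor 4 highest after ETS. In the fibrillar collagens Col1a1 and Col3a1 the differences were -4.56 and -5.67. Among the 31 tested genes with a collagen symbol (Col), 16 were called in the obese direction. Another 2 were called in the lean direction, Col9a1 (3.64) among them, and the median was -1.22. After ETS, 21 of 43 matrix genes were higher in obese than in lean tumors (background 3.28%), against 1 of 47 interferon effectors, and before therapy 11 of 43 were lower (background 12.9%), against 46 of 47.

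Fibroblast and vessel markers moved in the same direction. Of 14 tested fibroblast markers, 13 were called in the obese direction and Fbln1 was not, and the sum of all 16 was 705 to 2574 CPM in lean tumors before therapy, 235 to 786 CPM after ETS, 211 to 762 CPM in obese tumors before therapy and 823 to 6123 CPM after ETS, the highest value in obese tumor 4. Thy1 differed by -3.17 (SE 0.61, adjusted p = 0.00244) and Pdgfrb, the receptor for platelet-derived growth factor B on fibroblasts and pericytes, by -2.05 (SE 0.36, adjusted p = 0.00145). Without obese tumor 4 after ETS, 28 matrix genes and 10 fibroblast markers were called in the obese direction. Among 19 endothelial markers 12 were called, which became 6 without lean tumor 3 after ETS, lean tumor 4 before therapy, obese tumor 1 before therapy or obese tumor 4 before therapy. Kdr, the main receptor for vascular endothelial growth factor, fell by 0.75 in lean and rose by 1.22 in obese tumors, while Mmrn2 did not pass in lean tumors (0.03) and rose by 1.69 in obese ones. The part that these cells have in the matrix result was not tested.

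Genes of the invasive, dedifferentiated melanoma state had 10 of 22 tested members called in the obese direction. Axl was at 169.5, 230.4, 151 and 245 CPM in lean tumors before therapy, at 42.9, 35.4, 16.5 and 14.8 CPM after ETS, at 8.85, 11.5, 12.9 and 12.2 CPM in obese tumors before therapy and at 42.6, 28.9, 27.4 and 70.3 CPM after ETS. Axl, a receptor kinase of that state which macrophages also express, fell in lean tumors to values that overlapped those of obese tumors after ETS, and differed by -4.76 (SE 0.51, adjusted p = 2.78e-05). Zeb1, a repressor of epithelial genes, fell by 0.89 in lean and rose by 1.32 in obese tumors, with a difference of -2.20 (SE 0.27, adjusted p = 8.07e-05). Of 25 tested actin and Srf target genes, 8 were called in the obese direction, among them Tagln2 with -2.75 (adjusted p = 0.00261) and Actn1, an actin crosslinker, with -0.94 (adjusted p = 0.00374). Actb was at 2187, 2362, 2346 and 2489 CPM in lean tumors before therapy, at 1049, 769.9, 1347 and 1328 CPM after ETS, at 1778, 1910, 1611 and 1699 CPM in obese tumors before therapy and at 1345, 1214, 1676 and 2045 CPM after ETS. Actb, the beta-actin often used as a reference gene, fell in lean tumors by 1.06, changed by -0.16 in obese tumors and differed by -0.91 (SE 0.25, adjusted p = 0.0224).

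Lipid mediator, lysosome and secretion genes also had calls in the obese direction. Of 20 tested arachidonic acid genes 10 were called, and the count fell to 5 or 6 without lean tumors 3 or 4 after ETS, lean tumor 1 before therapy, obese tumor 4 after ETS, or obese tumors 1 or 3 before therapy. Pla2g4a was at 23.3, 24.7, 22.9 and 21.8 CPM in lean tumors before therapy, at 11.2, 10.7, 11.9 and 9.45 CPM after ETS, at 12.3, 12.1, 9.85 and 13.7 CPM in obese tumors before therapy and at 11.5, 10.8, 10.7 and 11.9 CPM after ETS. Pla2g4a, the phospholipase that releases arachidonic acid, was higher in lean tumors before therapy than in any other tumor, and differed by -1.001 (SE 0.16, adjusted p = 0.000571). Alox5ap, which presents arachidonic acid to 5-lipoxygenase, differed by -4.83 (SE 0.86, adjusted p = 0.00148). In 53 lysosome genes 12 were called, and 28 on TPM values. Psap (-1.47) and Grn (-1.71) had the lowest adjusted p-values of the list, and Ctss, a cathepsin of antigen-presenting cells, the largest difference (-5.82). The list of senescence-associated secretion had 12 of 28 tested members called in the obese direction and 1, Cdkn1a (2.17), in the lean direction. Another 14 members had a count of 0 in some library. Of the 12, Plau, the urokinase protease, differed by -3.05 (SE 0.43, adjusted p = 0.000223). Cytokine and NF-kB targets had 5 of 16, Csf1 (-3.14), Traf1 (-5.42), Icam1, Birc3 and Nos2, and immediate early genes 7 of 32, Egr1 (-2.41) and Egr3 (-2.83) among them.

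Most p53 targets rose in both hosts, and some rose more in lean tumors. Of 35 tested, 24 rose in lean and 22 in obese tumors, and for the difference 12 were called in the lean direction and 2, Fas and Cd80, in the obese direction. Cdkn1a was at 146, 108, 58.8 and 135 CPM in lean tumors before therapy, at 1232, 1472, 1073 and 1078 CPM after ETS, at 561, 467, 467 and 584 CPM in obese tumors before therapy and at 1350, 1261, 1178 and 1217 CPM after ETS. The groups after ETS overlapped, and before therapy every obese tumor lay above every lean tumor. Cdkn1a, the p21 inhibitor of cyclin-dependent kinases, rose by 3.44 in lean and 1.27 in obese tumors, a difference of 2.17 (SE 0.30, adjusted p = 0.000185). Zmat3 was at 45.96, 51.7, 45.7 and 53.97 CPM in lean tumors before therapy, at 160.3, 161, 154 and 176 CPM after ETS, at 89.02, 89.6, 100.6 and 94.7 CPM in obese tumors before therapy and at 174, 166, 172 and 128 CPM after ETS. Zmat3, an RNA-binding p53 target, differed by 0.95 (SE 0.14, adjusted p = 0.000277), with the lower obese rise again starting from a higher level. Larger rises in lean tumors were also found for Ccng1 (1.52), Phlda3 (1.49), Trp53inp1 (1.65) and Sulf2 (1.60). On TPM values 7 p53 targets were called in the lean direction and the median of the list turned from 0.30 to -0.04, so the list as a whole had no direction that held under both scalings.

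Of 40 tested apoptosis regulators, 19 were called in the obese direction and 3, Bax, Bbc3 and Casp6, in the lean direction. Bax was at 99.7, 93.6, 77.3 and 86.5 CPM in lean tumors before therapy, at 189.9, 259, 172 and 191 CPM after ETS, at 121, 128, 139 and 123 CPM in obese tumors before therapy and at 178, 160.2, 141 and 135 CPM after ETS. Bax, the pore former of the mitochondrial pathway, rose by 1.19 in lean tumors and did not pass in obese tumors (0.26), a difference of 0.92 (SE 0.18, adjusted p = 0.00228), and obese tumors started above all lean ones. Bbc3, which encodes the p53-induced activator PUMA, differed by 1.27. Mlkl was at 117, 136, 136 and 124 CPM in lean tumors before therapy, at 65.1, 61.4, 60.6 and 55.3 CPM after ETS, at 44.4, 40.6, 37.5 and 41.9 CPM in obese tumors before therapy and at 53.2, 54.4, 50.1 and 62.5 CPM after ETS. Mlkl, the executioner of necroptosis and itself induced by interferons, fell in lean and rose in obese tumors, with a difference of -1.504 (SE 0.12, adjusted p = 6.84e-06). The death ligand Tnfsf10 (TRAIL) differed by -6.22 (SE 0.81, adjusted p = 0.000137), the death receptor Fas by -3.75 (SE 0.76, adjusted p = 0.00337), and the inflammatory caspase Casp1 by -4.66. Casp2 fell by 0.65 in lean and 0.68 in obese tumors, with a difference of 0.03 (SE 0.16, adjusted p = 0.931), whose sign changed with the scaling.

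With TMM scaling, the nuclear-encoded respiratory chain and the ribosomal proteins had larger shares called in the lean direction than all genes. Of 98 tested nuclear-encoded subunits of the respiratory chain, 52 were called in the lean direction and 1, Cox4i2, in the obese direction. The median effect was 0.67 in lean tumors, where 87 rose, and 0.13 in obese tumors, where 8 rose and 2 fell. Before therapy 70 of the 98 were higher in obese than in lean tumors (background 13.5%) and 1 was lower, with a median of 0.46, and after ETS the median was -0.07. Ndufa12 was at 79.2, 67.6, 70.6 and 69.3 CPM in lean tumors before therapy, at 117, 121, 100.9 and 105 CPM after ETS, at 96.5, 100.7, 108 and 108 CPM in obese tumors before therapy and at 109, 106, 93.5 and 85.5 CPM after ETS. The complex I subunit Ndufa12 thus rose in lean tumors into a range that overlapped the obese tumors before and after ETS, and differed by 0.70 (SE 0.13, adjusted p = 0.00164). Uqcrq of complex III differed by 0.76 (SE 0.15, adjusted p = 0.00332) and Ndufv3 of complex I by 0.92 (SE 0.18, adjusted p = 0.00254), while Cox7a1, the heart and muscle isoform of a complex IV subunit, rose by 4.10 in lean and 1.40 in obese tumors.

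The count of respiratory chain genes moved with scaling and with single tumors. The list had 22 calls on TPM values and 46 with total counts alone, and its median stayed positive (0.26 and 0.44, against 0.54). It was 30 to 33 without any of lean tumor 1 after ETS, lean tumors 2, 3 or 4 before therapy, obese tumor 3 after ETS, or obese tumors 3 or 4 before therapy. The NRF1 element, a run of GCGC, AT and GCGC bound by a known regulator of these genes, was in 5 of 75 promoters of the list (6.67%) against 1.72% of all promoters and 2.12% of those of the lean direction. It was not found in this window of Ndufa12, Ndufv3, Cox7a1, Mrpl42 or Mrps21. The 13 mitochondrially encoded subunits had a median difference of 0.56, but 0 were called by edgeR's quasi-likelihood test, by DESeq2 or at an unadjusted p under 0.05: all 13 rose in the lean group, 10 of them also in the obese group, and their mean level in obese tumors after ETS ranged from 10.54 in tumor 4 to 12.11 in tumor 2 on the log2 CPM scale.

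Cytosolic ribosomal proteins had 38 of 89 tested members called in the lean direction and 1, Rps4l, in the obese direction. Their median effect was 0.28 in lean tumors, where 36 rose and 1 fell, and -0.23 in obese tumors, where 30 fell. Rpl7 was at 832, 758, 729.7 and 680.1 CPM in lean tumors before therapy, at 854, 925, 976 and 1013 CPM after ETS, at 1004, 974, 1109 and 1163 CPM in obese tumors before therapy and at 945, 854, 811 and 906 CPM after ETS. Rpl7, a protein of the large subunit, was lowest in lean tumors before therapy, which overlapped only obese tumors after ETS, and differed by 0.60 (SE 0.14, adjusted p = 0.00661). This result rested on scaling and on single tumors: 1 member was called in the lean direction on TPM values and 21 with total counts alone, with medians of 0.21 and 0.38 against 0.49. It was 14 to 23 without lean tumors 3 or 4 before therapy, lean tumors 2 or 4 after ETS, obese tumors 3 or 4 before therapy, or obese tumors 2 or 3 after ETS. Ribosomal protein genes have many processed copies in the genome, to which reads can be split. Mitochondrial ribosomal proteins had 19 of 78 called in the lean direction, 3 on TPM values, and 11 without lean tumor 2 after ETS or lean tumor 4 before therapy, with Mrpl42 at 0.67 and Mrps21 at 0.70.

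Enzymes of glucose breakdown followed the respiratory chain in fewer genes. Of 23 tested glycolysis genes, 15 rose in the lean group against 1 in the obese group, and 6 were called in the lean and 2, Pfkfb3 and Pfkfb4, in the obese direction. Before therapy 14 of the 23 were higher in obese than in lean tumors (background 13.5%) and 2 were lower (background 12.9%). The median host difference was 0.61 before therapy and 0.11 after ETS. Pfkm was at 55.1, 43.3, 37.7 and 44.5 CPM in lean tumors before therapy, at 97.4, 97.2, 87.6 and 80.8 CPM after ETS, at 88.5, 78.6, 68.9 and 83.8 CPM in obese tumors before therapy and at 91.96, 91.2, 91.6 and 76.03 CPM after ETS. Pfkm, a phosphofructokinase at the committed step, rose in lean tumors alone past the threshold and differed by 0.87 (SE 0.16, adjusted p = 0.00185). Aldoc, an aldolase, differed by 1.06 (SE 0.26, adjusted p = 0.0111), and Pfkfb4, which makes the activator of phosphofructokinase, by -0.99 (SE 0.30, adjusted p = 0.0349). In the TCA cycle 6 of 25 were called in the lean direction, among them Fh1 (0.67) and Sdhb (0.66), and none on TPM values. Before therapy 17 of these 25 were higher in obese tumors and 0 lower, and the median host difference after ETS was 0.08. The lean glycolysis count was 2 on TPM values and 3 without lean tumors 2, 3 or 4 before therapy, obese tumor 3 after ETS or obese tumor 4 before therapy, and the TCA count was 2 or 3 without lean tumor 1 after ETS, lean tumors 2, 3 or 4 before therapy, obese tumors 1 or 4 after ETS or obese tumors 3 or 4 before therapy, and 12 without lean tumor 1 before therapy. Hypoxia response genes had 3 of 29 called in the lean direction, Fam162a (1.15), Ankrd37 (1.77) and Bnip3l (0.77), and 5 in the obese direction, Epas1, Egfr, Lox, Pfkfb3 and Pfkfb4. The lean count was 0 on TPM values and with total counts alone, 0 or 1 without lean tumors 2, 3 or 4 after ETS, lean tumors 2, 3 or 4 before therapy, obese tumor 1 after ETS or obese tumors 3 or 4 before therapy, 5 without lean tumor 1 before therapy, 6 without obese tumor 2 before therapy and 10 without obese tumor 4 after ETS. The obese count was 2 without obese tumor 4 after ETS and 3 without lean tumor 4 after ETS, lean tumors 1 or 2 before therapy or obese tumors 1, 3 or 4 before therapy. Before therapy 17 of the 29 hypoxia genes were higher in obese tumors and 2 lower. The list then summed to 2542 to 3869 CPM in lean and 5145 to 8709 CPM in obese tumors. The median host difference was 0.997 before therapy and 0.35 after ETS. The factor Hif1a changed by 0.28 in lean and -0.10 in obese tumors, neither past the threshold, and differed by 0.39 (SE 0.17, adjusted p = 0.1396).

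Of 41 tested genes of mitochondrial beta-oxidation, 24 rose (background 21.0%) and 3 fell (background 22.8%) with lean hosts. With obese hosts 16 rose (background 21.2%) and 5 fell (background 19.0%). For the difference 3 were called in each direction, near the share of all genes. The difference was positive in 31 of the 41, with a median of 0.27 that was 0.02 on TPM values, where 1 was called in the lean and 5 in the obese direction. The lean count was 7 without lean tumor 1 before therapy and 2 to 4 without any other tumor. Cpt1a was at 44.0, 42.9, 37.5 and 49.9 CPM in lean tumors before therapy, at 64.3, 49.0, 51.03 and 52.1 CPM after ETS, at 30.6, 47.2, 54.6 and 40.1 CPM in obese tumors before therapy and at 118, 96.1, 92.4 and 87.5 CPM after ETS. Obese tumors after ETS lay above every other tumor. Cpt1a (gene ID 12894, chromosome 19 from 3322326 to 3385735), the outer-membrane transferase that commits fatty acids to oxidation, did not pass in lean tumors (0.31) and rose by 1.19 in obese tumors, a difference of -0.88 (SE 0.22, adjusted p = 0.0127). Acsl1 and Acsl5, which activate fatty acids by joining them to coenzyme A, had the same direction (-0.59 and -0.77). The enzymes Acat1 and Hadh of the last steps of the cycle, with Mcee, had the lean direction (0.62, 0.53 and 0.69). Acadl, the long-chain acyl-CoA dehydrogenase, did not pass in either host and differed by -0.24 (SE 0.12, adjusted p = 0.192).

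Of 19 tested PPAR receptors and targets, 6 were called in the obese direction, Ucp2, Pparg, Plin2, Cpt1a, Lpl and Cd36, and Fabp5 in the lean direction. Cd36 was at 40.7, 21.1, 16.1 and 24.8 CPM in lean tumors before therapy, at 18.9, 15.4, 10.1 and 4.18 CPM after ETS, at 8.97, 46.2, 30.3 and 13.8 CPM in obese tumors before therapy and at 179, 53.8, 63.5 and 54.9 CPM after ETS. Cd36, a fatty acid uptake receptor that macrophages and vessels also express, rose by 1.82 in obese tumors, with tumor 1 after ETS far above the other 3, did not pass in lean tumors (-1.08), and differed by -2.90 (SE 0.78, adjusted p = 0.0187). Ucp2 was at 109, 116, 69.6 and 86.7 CPM in lean tumors before therapy, at 51.6, 58.1, 24.4 and 26.6 CPM after ETS, at 16.3, 25.4, 18.7 and 26.97 CPM in obese tumors before therapy and at 98.2, 44.4, 45.3 and 86.4 CPM after ETS. Ucp2, a mitochondrial carrier, fell in lean and rose in obese tumors and differed by -2.90 (SE 0.45, adjusted p = 0.000561). Pparg, the adipocyte lineage receptor, differed by -3.47 (SE 0.60, adjusted p = 0.001099). Fabp5, a fatty acid binding protein, fell by 0.60 in obese tumors and differed by 0.76 (SE 0.17, adjusted p = 0.00561), a call that was not made on TPM values. The receptor Ppara was low in all tumors, between 0.354 and 1.34 CPM, and its difference of 0.45 (SE 0.47, adjusted p = 0.563) changed sign on TPM values.

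Among 28 genes of fatty acid synthesis and storage, 5 were called in the obese direction and 2 in the lean direction, with a median difference of -0.03. The first count was 3 without lean tumors 3 or 4 after ETS, lean tumor 4 before therapy, obese tumor 1 after ETS or obese tumors 1, 3 or 4 before therapy. Plin2, which coats lipid droplets, rose by 0.48 in lean and 1.42 in obese tumors and differed by -0.94 (adjusted p = 0.00764). The lipases Pnpla2 (-1.09), Lipe (-1.71) and Mgll (-1.74) and the elongase Elovl5 shared its direction. Lpin1, which makes diacylglycerol, and Thrsp, a regulator of lipogenesis, had the lean direction (1.06 and 2.23). Of the adipocyte markers, 3 of 6 tested, Pparg, Cebpa and Lipe, were called in the obese direction, and the sum of all 17 was 39.5 to 69.0 CPM in lean tumors before therapy, 35.5 to 61.1 CPM after ETS, 36.4 to 166 CPM in obese tumors before therapy and 92.9 to 335 CPM after ETS. The part of fat tissue in these results was not tested. Of 23 tested genes of peroxisomal oxidation 2 were called in the obese direction, the transporter Abcd2 among them, and 2, Pecr and Amacr, in the lean direction. The lean count was 0 on TPM values and with total counts alone, and 0 or 1 without lean tumors 1 or 2 after ETS, lean tumors 2, 3 or 4 before therapy, obese tumors 1, 3 or 4 after ETS or obese tumors 1 or 2 before therapy.

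**Figure D5:**
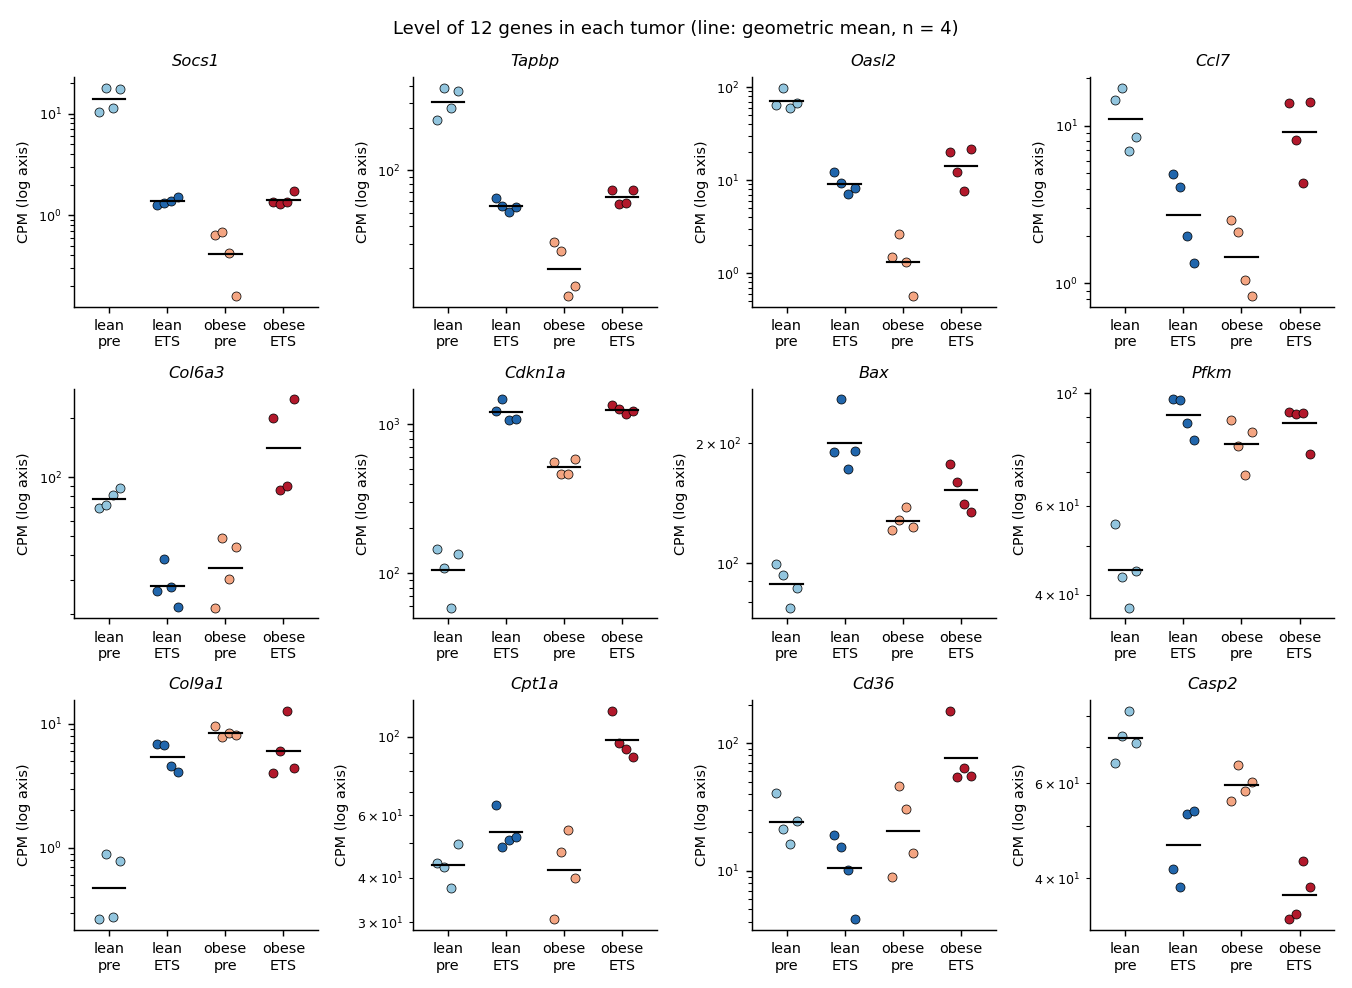
Each panel shows the CPM of a gene, on a log axis, in the 4 tumors of each group, with a line at the geometric mean. Socs1, Tapbp, Oasl2 and Ccl7 fall in lean and rise in obese tumors, Cdkn1a, Bax, Pfkm and Col9a1 rise more in lean tumors, Cpt1a and Cd36 rise in obese tumors, and Casp2 falls in both hosts with a difference of 0.03.

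Several functions responded to ETS with few or no called differences. DNA replication genes fell for 41 of 48 members in lean hosts and for 45 in obese hosts, with 4 called for the difference, Rpa3, Orc3, Rfc4 and Pold2, all in the lean direction (8.33%) and none with total counts alone. Mitosis genes fell in 72 and 73 of 77, with 5 called in the lean direction, Spc25 (0.61), Pttg1, Cdk1 (0.48), Ncapg and Bub3, and none on TPM values. The mitosis count was 0 without lean tumor 4 or obese tumor 4 before therapy, 1 to 3 without lean tumors 2, 3 or 4 after ETS, lean tumors 2 or 3 before therapy, obese tumors 1 or 4 after ETS or obese tumor 3 before therapy, and 8 without obese tumor 2 after ETS. Double-strand break repair genes had 2 of 54 called, Fanca (-0.75) and Rad51d (0.37), and cholesterol synthesis 0 of 26 by edgeR's quasi-likelihood test and by DESeq2, with 3 at an unadjusted p under 0.05. A median near 0 does not show that the hosts responded alike. Naa10, the catalytic subunit of the main N-terminal acetyltransferase, did not pass in lean tumors (0.02) and fell by 0.47 in obese tumors, a difference of 0.49 (SE 0.13, adjusted p = 0.0219) that was not called on TPM values or with total counts alone. Lepr, the leptin receptor, was at 1.17 CPM or less in all tumors and differed by -1.04 (SE 0.71, adjusted p = 0.348).

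The largest differences in the lean direction belonged to genes of varied function. They were ranked among protein-coding genes of at least 1 CPM on average, called with all tumors and in all 16 fits without a tumor. Col9a1 was at 0.266, 0.891, 0.278 and 0.779 CPM in lean tumors before therapy, at 6.896, 6.73, 4.53 and 4.08 CPM after ETS, at 9.55, 7.84, 8.41 and 8.09 CPM in obese tumors before therapy and at 4.03, 5.97, 12.7 and 4.36 CPM after ETS. Lean tumors rose into the range of obese tumors after ETS, and the change in obese tumors did not pass. Col9a1, a collagen chain known from cartilage, differed by 3.64 (SE 0.58, adjusted p = 0.000617). Pnpla3 was at 0.199, 0.338, 0.0927 and 0.0636 CPM in lean tumors before therapy, at 4.37, 3.46, 2.54 and 1.89 CPM after ETS, at 1.51, 1.76, 1.24 and 0.989 CPM in obese tumors before therapy and at 1.32, 1.79, 3.36 and 1.26 CPM after ETS. Pnpla3, a lipid droplet enzyme, differed by 3.63 (SE 0.62, adjusted p = 0.00112), and Clvs1, a lipid-binding protein of endosomes, rose by 2.36 in lean and fell by 1.10 in obese tumors and differed by 3.46 (SE 0.55, adjusted p = 0.000634). Fam81a (2.94), Lrrc4b (2.92) and Scrg1 (2.89) followed by size. Clvs1 overlaps Asph and 3 gene models, to which its reads could also belong. Apol6 overlaps Mb in the same way. Under the same conditions, the largest differences in the obese direction were those of Apol6 (-8.31), Oas3 (-8.06), Gbp5 (-7.86), Cd5l (-7.82), Gm12250 (-7.80) and Apol9a (-7.70). Apol6 and Gbp5 passed the 1 CPM limit mainly through lean tumors before therapy (means of 41.1 and 49.0 CPM). Counts in obese tumors before therapy were low: 10, 102, 13 and 13 for Apol6, 6, 21, 16 and 2 for Oas3, and 15, 62, 3 and 4 for Gbp5. The sizes of these differences thus rest on few reads. Cd5l, a macrophage protein, varied widely within groups, with an SE of 1.91.

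Neural crest and pigment genes were mostly not called. Before therapy, 10 of the 23 tested pigmentation markers were lower in obese than in lean tumors (background 12.9%) and 0 were higher (background 13.5%). Of 23 pigmentation markers, Ednrb alone was called (-2.26), while Tyr, the rate-limiting enzyme of melanin synthesis, rose by 1.01 in lean and 0.92 in obese tumors with a difference of 0.09 (SE 0.37, adjusted p = 0.898), and Pmel, Mlana and Dct did not pass (-0.53, -0.21 and -0.08). Genes that Schwann cells share with melanoma had 3 of 9 tested in the lean direction, among them S100b and Mbp, but 0 on TPM values, and Pmp22 in the obese direction. S100b was at 47.9, 32.1, 40.8 and 43.6 CPM in lean tumors before therapy, at 187, 146, 164 and 182 CPM after ETS, at 108, 91.6, 91.1 and 75.9 CPM in obese tumors before therapy and at 218, 243, 186 and 122 CPM after ETS. S100b, a calcium-binding protein, rose in both hosts and more in lean tumors, with a difference of 0.98 (SE 0.25, adjusted p = 0.0158). Pmp22 differed by -3.22 (adjusted p = 0.002396).

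Other named genes combined their effects in both hosts in different ways. Scrg1 rose by 4.02 in lean and 1.13 in obese tumors, and Fxyd3, a regulator of the sodium pump, by 3.67 and 0.94, with a difference of 2.73 (SE 0.39, adjusted p = 0.000277). Tenm4 was at 1.35, 3.304, 1.65 and 1.398 CPM in lean tumors before therapy, at 2.99, 3.296, 5.87 and 5.97 CPM after ETS, at 14.2, 10.7, 11.4 and 13.3 CPM in obese tumors before therapy and at 5.204, 5.33, 4.94 and 2.51 CPM after ETS. Tenm4, a teneurin of cell contacts, rose in lean and fell in obese tumors, which started highest, and differed by 2.70 (SE 0.46, adjusted p = 0.00106). Pla2g4c fell by 3.23 in lean and 0.996 in obese tumors. Gsdmc and the sodium channel Scn1a fell in obese tumors only past the threshold, with differences of 1.30 (adjusted p = 0.007098) and 1.16 (adjusted p = 0.0119). Dcn, the matrix proteoglycan decorin, rose by 3.76 in obese tumors and ranged from 2.29 to 64.8 CPM among lean tumors before therapy, so that its difference of -5.52 had an SE of 1.499, and for Chl1, an adhesion molecule of nerve cells, the difference of -6.01 had an SE of 1.55.

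Called genes were also described by position and level. Reading tested genes in chromosome order, 12 runs of at least 5 neighbours were all called in the obese direction, and no such run had the lean direction. The longest held 12 genes on chromosome 1 from 173331892 to 174921911 (GRCm38.p6), mostly Ifi200 family sensors of DNA around Aim2, with a median of -6.20, followed by 10 genes of class II and peptide transport on chromosome 17 from 34119693 to 34316674. Others held Cd300, Gvin, Slfn, Trim30, Ms4a and Ccl clusters. Neighbours in such families share sequence, so their counts are not independent. The share called in the lean direction was 1.85% in the fifth of genes with the lowest level and 10.6% in the fifth with the highest, whereas the obese share was largest in the fifth just above the lowest, 17.4%. Of 1322 tested pseudogenes, 38 were called in the lean (2.87%) and 3 in the obese direction (0.227%). Both shares lay below those of all tested genes, 6.35 and 10.1%.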

How the data were processed

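Tumor RNA was sequenced as stranded paired libraries, and per the labels and the submitters' processing notes the reads passed through bcl2fastq 2.20.0, Trimmomatic, HISAT2 2.1.0 and StringTie 2.1.3b on mm10. The authors deposited 1 table with raw read counts per gene for each tumor, and TPM values that StringTie had scaled by length and library. Whether counting used strand is not given in the sources used here, so overlapping and near-identical genes are uncertain. The 16 per-sample FPKM columns of the table were not used.

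Genes with a count of 0 in any library were left out (29568 of 45777), and 16209 were tested with edgeR 4.0.16 (R 4.3.3) by TMM scaling and quasi-likelihood tests over all 16 tumors, with Benjamini-Hochberg adjustment. The script was tested on simulated data. Coordinates and promoters are from RefSeq tables of GRCm38.p6, in which 45679 identifiers matched. Members and lists were chosen with earlier results of these data known.

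Genes were named by a rule: the 6 largest differences per direction among protein-coding genes called with all tumors and in all 16 fits without a tumor, at a mean of at least 1 CPM. To these were added, in each list with at least 5 tested members and 30% called, the 2 lowest p-values of the main direction and 1 of the other, the 2 largest in each combination of own effects with at least 20 called genes, and Ppara, Hif1a, Cpt1a, Acadl, Casp2, Naa10, Cd36 and Lepr. A few named genes are not reported here. Alternatives were DESeq2 1.42.0, its size factors, total counts, limma 3.58.1 on log2(TPM + 1), limma-voom, other filters on low counts, a block on replicate number and leaving out each tumor.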

Additional observations from a re-analysis of the deposited data

Results flagged for a closer look

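The interaction test itself marks the hosts as different for 1030 genes more positive in lean tumors and 1630 more positive in obese tumors, and, among the genes named whatever their result, for Cpt1a (-0.88), Naa10 (0.486) and Cd36 (-2.90).

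In 376 groups of 4 tumors, 26 tumors lay far from the other 3 by Dixon's ratio, of which chance gives about 1 in 20 groups. Obese tumor 4 after ETS held 4 of them: 61.8 CPM for summed neutrophil markers (others 4.86 to 12.9), 1.79 for Ccl22 (others 0.924 to 1.01), 76.0 for Pfkm (others 91.15 to 91.96) and 2.51 for Tenm4 (others 4.94 to 5.33). Obese tumor 1 after ETS was far at 179 CPM for Cd36 (others 53.8 to 63.5) and 4.71 for Pparg (others 2.08 to 2.41), obese tumor 2 at 203.5 for summed keratinocyte markers (others 8.41 to 9.34), and obese tumor 3 at 25.3 for Clvs1 (others 8.54 to 10.8) and 7.39 for Rtp4 (others 16.1 to 17.3).

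Obese tumor 4 before therapy had 13070 CPM of summed erythroid markers (others 863 to 1442) and 28.2 of neutrophil markers (others 2.63 to 6.90). Obese tumor 2 before therapy was high for Apol6 (2.03 CPM, others 0.207 to 0.230), Cd5l (0.578, others 0.0827 to 0.151), Tnfsf10 (0.818, others 0.184 to 0.230) and Tagln2 (40.2, others 22.4 to 25.1). Lean tumor 1 before therapy had a total count of 61391684 (others 59466055 to 59761257), was high for Cd5l (28.01 CPM, others 0.124 to 4.17), and was low for Mmrn2 (10.1, others 12.4 to 12.6). Lean tumor 2 before therapy was high for summed keratinocyte markers (43.5 CPM, others 8.13 to 10.1), Rtp4 (43.4, others 26.2 to 28.9) and Tenm4 (3.30, others 1.35 to 1.65).

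After ETS, lean tumor 1 was high for Apol9a (12.3 CPM, others 3.42 to 4.64). Lean tumor 2 was high for Cd5l (2.40, others 0.123 to 0.483) and Dcn (26.6, others 1.70 to 4.92). Lean tumor 3 was low for Csf1 (9.45, others 12.5 to 13.0), and lean tumor 4 was high for summed dendritic cell markers (131.5, others 111 to 114).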

How the results depend on the processing

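The count of 2660 genes was 3313 with DESeq2, 2701 with its size factors, 3308 of 17746 with filterByExpr and 2654 of 28754 without exclusion. It was 2467 on TPM values, 3517 with limma-voom, 2409 with total counts and 1522 at a 2-fold minimum. No gene called with all tumors and TMM was called in the opposite direction in any of these, and genes that lost their call were not checked for sign. The lean count of 1030 became 228 on TPM values, 1603 with limma-voom, 557 with total counts and 229 at a 2-fold minimum. The count between hosts after ETS, 904, became 2054 with DESeq2, 450 without exclusion and 1683 with the replicate block. Replicate numbers did not pair the tumors: same-numbered tumors of different groups correlated at -0.11 to 0.45 (median 0.07), other pairs at -0.58 to 0.51, and 1 of 16 tumors correlated best with its own number in every other group. The replicate block gave 3087 interaction calls, 1296 lean and 1791 obese.

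With a tumor left out, the interaction count ran from 1985 (without lean tumor 4 before therapy) to 3094, the lean effect from 5803 to 7515, the obese effect from 4902 to 6640, the host difference before therapy from 3049 to 4698 and after ETS from 186 to 1347, the lean direction from 594 to 1370 and the obese direction from 1365 to 1724. Of 624 values of 78 named genes under other settings, 613 kept direction and call. Those that reversed were Ppara at -0.079 on TPM values, and Casp2 at -0.264 on TPM values and -0.089 with total counts, neither of them called with all tumors. Leaving out tumors moved Casp2 between -0.06 and 0.10, with -0.057, -0.046, -0.038, -0.023, -0.016 and -0.012 where it reversed, and ended the call of Pfkfb4 in 8 of 16 fits. The cause of these changes was not tested.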

Other observations

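Other gene families also had calls in the obese direction, in which 10.1% of all tested genes were called. Of 12 tested poly-ADP-ribose polymerases 7 were called there, of 14 serpins 8, of 44 tripartite motif proteins 11 (with 4 in the lean direction) and of 7 Schlafen genes 6. Solute carriers lay near the share of all genes, with 19.9% called in either direction against 16.4%. Of their 231 tested members, 34 were called in the obese and 12 in the lean direction (7 without obese tumor 4 before therapy). Stress programs had few calls: 1 of 22 genes of the unfolded protein response, 2 of 28 chaperones and 2 of 30 Atf4 targets.

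Y-linked genes, which come from male cells, also differed. Eif2s3y was at 4.82, 5.78, 2.61 and 3.48 CPM in lean tumors before therapy, at 0.784, 0.919, 0.555 and 0.438 CPM after ETS, at 0.765, 1.91, 0.821 and 0.283 CPM in obese tumors before therapy and at 2.43, 1.67, 1.59 and 4.799 CPM after ETS. Eif2s3y fell by 2.63 in lean and rose by 1.48 in obese tumors, a difference of -4.10 (SE 0.70, adjusted p = 0.00105), and Ddx3y differed by -3.12 (SE 0.57, adjusted p = 0.00175). Both lie on chromosome Y.

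Hbb-bs, a beta-globin of red cells, was excluded from the test by a count of 0. Hbb-bs was at 138, 63.8, 175 and 36.03 CPM in lean tumors before therapy, at 0.0178, 0, 0 and 0.0525 CPM after ETS, at 316, 273, 506 and 4559 CPM in obese tumors before therapy and at 0.635, 1.05, 11.6 and 4.33 CPM after ETS. It was higher before therapy than after ETS in both hosts. Lep, the leptin gene, was also excluded and was at 0.266, 0.277, 0 and 0.0318 CPM in lean tumors before therapy, at 0, 0, 0 and 0 CPM after ETS, at 0.124, 10.7, 1.09 and 0.141 CPM in obese tumors before therapy and at 4.86, 5.703, 6.502 and 0.1401 CPM after ETS, a transcript level that does not check the genotype.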
